A study of Mus musculus with 4 samples.

Results

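The clustered histone genes were examined in RNA-seq counts of 2 unloaded and 2 loaded libraries. The libraries came from MLO-Y4, an osteocyte-like line of mouse long bone. The members were all genes whose listed name begins with *Hist1h*, *Hist2h*, *Hist3h* or *Hist4h*, which gave 70 of the 55450 listed genes: 6 of type H1, 20 of H2A, 19 of H2B, 12 of H3 and 13 of H4. All cells were of wild-type genotype and entered the treatment at 60% confluency. Over 12 h, loaded cells were stretched equiaxially (20% strain, frequency 0.5 Hz) on silicone membranes coated with type I collagen, and unloaded cells stayed for 12 h in the same incubator on standard 6-well plates. Loading and the growth surface therefore cannot be told apart. The labels do not say that replicates were separate cultures, so p-values measure only the spread between these samples. Total counts ranged from 28941994 to 32185693 per library. Of 8 osteocyte markers, 4 passed the filter on low counts, with *Pdpn* at 4154 to 6943 counts and *Dmp1* at 12 to 14 counts, while *Mepe* and *Dkk1* had no count. The blood cell markers *Ptprc* and *Adgre1* had no count in 3 of 4 libraries, and *Cd68*, the last of that list, had 162 and 141 counts in unloaded and 99 and 84 in loaded cells.

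Most histone protein made while DNA is copied comes from these genes, which lie in clusters and have no introns in their classical form. Their classical mRNAs end in a conserved stem-loop that is bound by SLBP, in place of a poly(A) tail, and are made and degraded with S phase. H2A, H2B, H3 and H4 form the nucleosome core, and H1 binds the linker DNA between nucleosomes. Replication-independent histones such as H3.3, H2A.Z and H1.0 come from genes outside the clusters and have polyadenylated mRNA.

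On the GRCm38 build, the Hist1 cluster lies on chromosome 13, with 24 members between 21715763 and 22043676, 31 members between 23531050 and 23934851, and the pseudogene *Hist1h2al* alone at 51202727 to 51203065. Hist2 holds 10 members on chromosome 3 (96219865 to 96270132), Hist3 holds 3 on chromosome 11 (58948920 to 58956830), and *Hist4h4* stands alone on chromosome 6 (136801553 to 136804415). The 13 H4 genes encode 1 protein, the 12 H3 genes encode 3 proteins, and 9 of the 18 coding H2A genes encode the same protein. The stem-loop was searched in the GENCODE M21 transcripts as GGNNNT paired base for base with ANNNCC around the loop NNTN, 16 bases in all. It was found in 46 of the 70 members and in 0.557% of 21884 other protein-coding genes. Some members without a match, such as *Hist1h2ai*, *Hist1h3h* and *Hist1h4k*, have models that end at the stop codon. In these a stem-loop in the 3′ UTR could not be found, so a missing match does not show that the gene lacks it. The sequences below were chosen because they show the forms shared by most members and belong to genes described further on. Capitals mark the 16 bases of the stem-loop, all lie in the 3′ UTR, and all are written 5′ to 3′ on the strand of the gene.
*Hist1h1c* (H1, chr13:23739507-23739536, plus strand): caaaaGGCTCTTTTCAGAGCCaccactccc
*Hist1h2ap* (H2A, chr13:21833026-21833049, minus strand): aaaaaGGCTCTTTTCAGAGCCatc
*Hist3h2a* (H2A, chr11:58955167-58955196, plus strand): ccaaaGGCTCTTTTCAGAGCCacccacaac
*Hist1h3c* (H3, chr13:23745038-23745067, minus strand): aaaaaGGCTCTTTTAAGAGCCacctaagat
*Hist1h4h* (H4, chr13:23531453-23531482, plus strand): ccaaaGGCCCTTTTCAGGGCCgcccacatt
*Hist2h4* (H4, chr3:96262930-96262959, minus strand): ctaacGGCCCTTTTTAGGGCCaaccacagt
The first form, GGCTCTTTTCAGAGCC, was held by 26 genes of types H1, H2A, H2B and H3, and the form of *Hist1h3c* by 6 genes of types H1, H2B and H3. The H4 genes had forms of their own: 7 had that of *Hist1h4h* and 2 that of *Hist2h4*. The *Hist1h2ap* model ends 3 bases past its stem-loop, as a processed histone mRNA does, whereas the models of *Hist1h1c*, *Hist2h4* and *Hist3h2a* run on for 840, 1257 and 1643 bases. *Hist1h2bc* (2 exons) and *Hist2h2be* hold no match and run 742 and 2192 bases past the stop codon.

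The clustered histone genes were detected at very low levels in all 4 libraries. All 70 together had 1092 and 1394 counts in unloaded and 1372 and 1273 in loaded cells, between 0.00377% and 0.00464% of each total. As CPM, counts per 1000000 after TMM normalization, the sum was 37.6 and 46.0 in unloaded and 42.5 and 42.7 in loaded cells. By contrast, 11 replication-independent histone genes summed to between 1478 and 1585 CPM, 31 genes of DNA replication and S phase to between 5080 and 5765 CPM, and 10 mitotic genes to between 2840 and 3583 CPM. Thus genes of dividing cells were abundant in the libraries that held few counts of clustered histone genes. Ribosomal depletion, named in the study's methods, leaves RNA without a poly(A) tail in the sample. Other RNAs of that kind also had few counts, and 10 of them summed to between 21.3 and 45.4 CPM. *Rn7sk* (7SK RNA) had 91 to 198 counts, and *Terc*, *Rnu11* and *Rny3* had none. These RNAs are short: per kb of exon, *Rn7s1*, *Rn7s2*, *Rn7sk* and *Rmrp* stood at 38.7, 38.9, 14.6 and 6.34 CPM. That is above the median tested gene at 4.90, while *Rpph1*, *Rnu12* and *Rny1* were below it. Whether library preparation, mapping or counting set the low counts of the clustered histone genes and of these RNAs was not tested. The counting was also checked on the mitochondrial genome, where none of the 37 listed genes had a count, so the mitochondrial ribosomal RNAs say nothing about depletion.

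**Figure D1:**
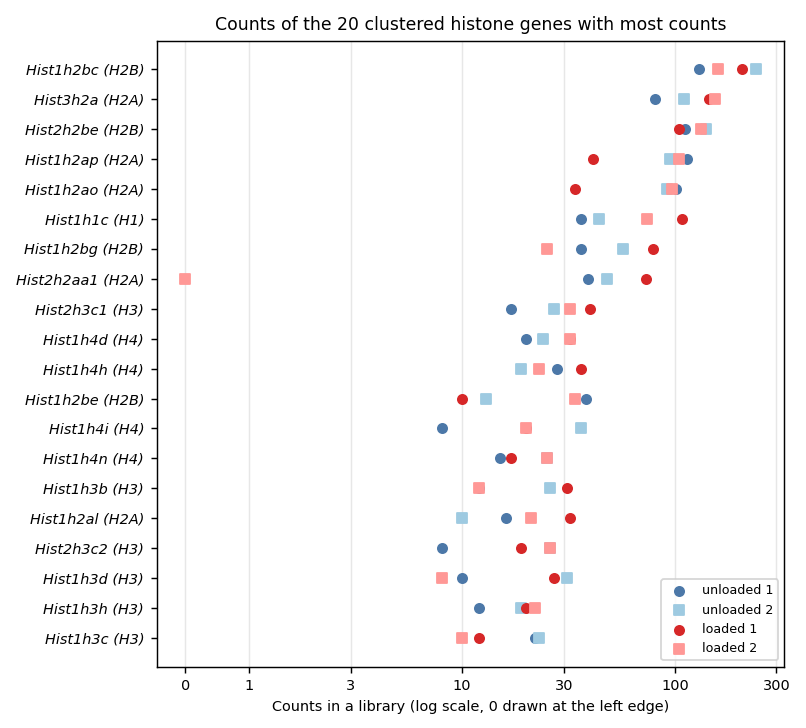
Counts of the 20 clustered histone genes with most counts (rows, histone type in brackets), on a log scale, with 1 point for each of the 4 libraries. *Hist1h2bc* is at the top with 130 to 240 counts, *Hist1h2ap* and *Hist1h2ao* have 1 low point from loaded replicate 1, and *Hist2h2aa1* has 0 in loaded replicate 2.

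Within the family, counts were concentrated in few genes. *Hist1h2bc*, *Hist3h2a* and *Hist2h2be* held 33.4% of all member counts, and the leading 10 genes held 63.1%. Only 6 members exceeded 100 counts in any library, 46 had a count in every library, and 12 had at most 3 counts in every library. The 9 members without any count were *Hist1h1b*, *Hist1h1t*, *Hist1h2aa*, *Hist1h2ba*, *Hist1h2bj*, *Hist2h2aa2*, *Hist2h2bb*, *Hist2h3b* and *Hist3h2ba*. A floor of 3 counts is at most 0.103 CPM and covers counting error only. It does not bound their level, since a listed 0 can stand beside a well-counted replicate, as for *H1fx* below. *Hist1h1t*, *Hist1h2aa* and *Hist1h2ba* are known as testis histones. For *Hist2h2aa2*, 100% of the 75-base windows of its transcript also occur in other members, so reads of it cannot be assigned to it alone.

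**Figure D2:**
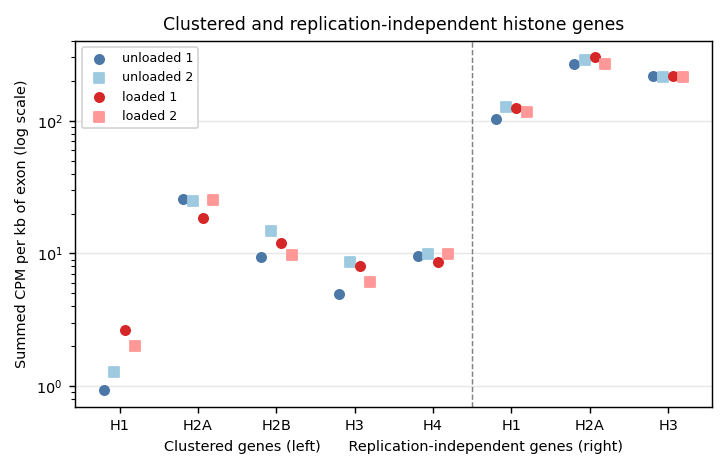
Summed CPM per kb of exon (log scale) of the clustered genes of each histone type (left of the dashed line) and of the replication-independent genes of types H1, H2A and H3 (right), with 1 point per library. The clustered genes sit between 0.937 and 25.6, and the replication-independent genes between 104 and 300 in every library.

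Levels between genes were compared per kb of exon. The clustered H2A genes were highest, at 18.4 to 25.6 summed CPM per kb across the 4 libraries, followed by H2B at 9.40 to 14.7, H4 at 8.70 to 9.89, H3 at 4.98 to 8.57 and H1 at 0.937 to 2.64. Per kb, the ranges of H2B and H4 overlapped, while those of H2A, H3 and H1 overlapped with no other type. This separation rests on the lengths of the annotated models. As summed CPM without length, H2A (12.8 to 15.97) overlapped with H2B (12.5 to 16.9), and H3 (3.41 to 6.27) with H4 (5.39 to 6.07). The replication-independent genes stood at 68.96 times the clustered genes for H1 (*H1f0* and *H1fx*), 31.2 times for H3 (*H3f3a*, *H3f3b* and *Cenpa*) and 11.9 times for H2A (6 genes). Of single members, *Hist1h2ap* had the highest level at 6.15 CPM per kb, then *Hist1h2ao* at 5.64 and *Hist1h2bc* at 5.22. These were the 3 of 33 tested members above the median tested gene, which stood at 4.90 CPM per kb, and the median tested member stood at 0.883.

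The members were next compared between loaded and unloaded cells, to ask whether stretching for 12 h changed the RNA of the histone supply. No member changed at an edgeR adjusted p under 0.01: 0 of the 33 members that passed the filter on low counts were called, against 0.0983% of all 16269 tested genes. At an unadjusted edgeR p under 0.05 there were 3 of 33 (*Hist1h1c* and *Hist1h2ad* with positive and *Hist2h4* with negative fold changes), a smaller share than the 14.3% of all tested genes. DESeq2 gave an adjusted p for 6 members and called 0 of them, against 2.91% of all genes with one. The log2 fold change (loaded minus unloaded) was positive for 18 and negative for 15 members, with a median of 0.08 and a range from -2.30 to 2.25, while the median of all tested genes was -0.01. The CPM of the 2 groups did not overlap for 13 of 33 members, against 46.6% of all tested genes. Both loaded values were higher for 10 members (all tested genes, 22.1%) and lower for 3 (all tested genes, 24.5%). The sum over all 70 members was 41.8 ± 5.94 CPM in unloaded and 42.6 ± 0.135 CPM in loaded cells (SD, n = 2), and the groups overlapped. In bulk samples, the share of cells in S phase and the histone RNA per cell cannot be told apart.

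**Figure D3:**
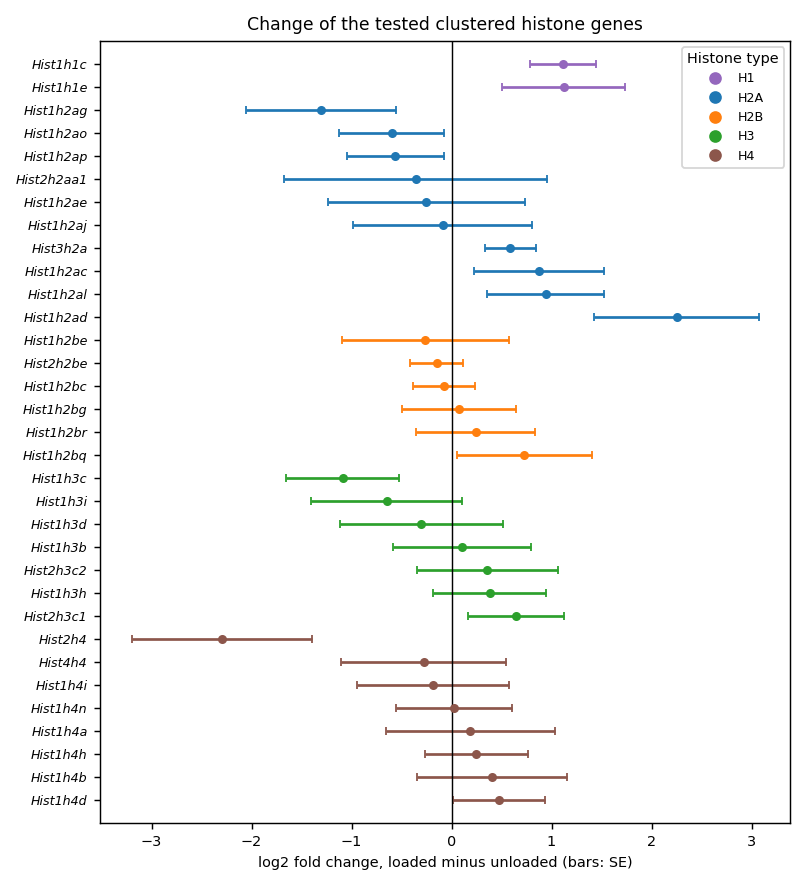
log2 fold change (loaded minus unloaded, horizontal axis) with its SE for the 33 tested members (rows), coloured by histone type. Both H1 genes lie near 1.1, H2A spans -1.31 to 2.25, H2B stays between -0.26 and 0.73, and *Hist2h4* is lowest at -2.30; no member had an edgeR adjusted p under 0.01.

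Of the 6 linker histone genes, 3 (*Hist1h1c*, *Hist1h1e* and *Hist1h1d*) had higher counts in both loaded libraries. Both loaded CPM were higher for 22.1% of all tested genes. *Hist1h1c* and *Hist1h1e* were tested and not called, and *Hist1h1d* was too low for the test. *Hist1h1c*, which encodes the somatic linker histone H1.2, had 36 and 44 counts in unloaded cells and 108 and 74 counts in loaded cells. The groups did not overlap, and its log2 fold change was 1.11 ± 0.33 (SE, edgeR adjusted p = 0.213). *Hist1h1e*, which encodes H1.4, had 8 and 10 counts against 18 and 23, again without overlap (log2 fold change 1.12 ± 0.62, edgeR adjusted p = 0.471). The gene partly overlaps the same-strand model of *Hist1h2be*, whose counts were 38 and 13 against 10 and 34, and 28.4% of its 75-base windows occur in other members. *Hist1h1d* (H1.3) had no count in unloaded cells and 8 and 4 counts in loaded cells, a ratio with a 95% exact lower limit of 2.66 that covers counting error only. This limit, and those given below for other genes, take the listed counts as independent reads. *Hist1h1a* had 0 and 4 against 4 and 0 counts, and *Hist1h1b* and *Hist1h1t* had none. Summed over the 6 H1 genes, the level was 1.52 and 1.91 CPM in unloaded and 4.28 and 3.39 CPM in loaded cells, a log2 ratio of 1.16. Leaving out single libraries gave 0.98 to 1.34. The replication-independent *H1f0*, named here after its values were seen, had 6189 and 7099 against 7518 and 7142 counts (log2 fold change 0.08 ± 0.07, edgeR adjusted p = 0.676). The other gene of that kind, *H1fx*, was listed at 0 and 514 against 455 and 0 counts, so a 0 in this table can stand beside a well-counted replicate.

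Of 10 tested H2A genes, 4 had positive and 6 negative fold changes, and none passed the test. *Hist1h2ap* had 114 and 95 counts in unloaded cells and 41 and 105 in loaded cells, and *Hist1h2ao* had 101 and 92 against 34 and 97. Both genes were low only in loaded replicate 1, and the groups overlapped (log2 fold change -0.56 ± 0.49 and -0.60 ± 0.52, edgeR adjusted p = 0.662 for both). They have the same coding sequence, and 92.6% and 93.1% of their 75-base windows occur in other members, so they are not separate measurements. Without loaded replicate 1 both fold changes were 0.00. *Hist3h2a*, of the small Hist3 cluster, had 81 and 110 against 145 and 154 counts (log2 fold change 0.59 ± 0.25, edgeR adjusted p = 0.368), with no overlap. Only 0.82% of its windows occur in other members, but its model overlaps that of the same-strand gene *Trim17*, which had 14 and 0 against 12 and 5 counts.

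*Hist2h2aa1* had 39 and 48 counts in unloaded cells and 73 and 0 in loaded cells. The same-strand gene *Gm20634*, which overlaps it, showed the same pattern at 62, 77, 116 and 0 counts, and the antisense *Gm20633* had 49, 50, 97 and 24. Its log2 fold change of -0.36 ± 1.32 became 0.63 without loaded replicate 2. The strandedness of the counting is not given in the sources used here, so reads of these genes cannot be told apart. *Hist1h2ad* had 3 and 2 against 15 and 11 counts (log2 fold change 2.25 ± 0.82, edgeR adjusted p = 0.301). Its ratio of summed counts was 4.97, with a 95% exact interval of 1.88 to 16.6 that covers counting error only. *Hist1h2ag* ran the other way, with 10 and 19 against 5 and 7 counts (log2 fold change -1.31 ± 0.75). They share 65.5% and 77.6% of their windows with other members. The pseudogene *Hist1h2al* had 16 and 10 against 32 and 21 counts (log2 fold change 0.94 ± 0.59). As a sum, the 20 H2A genes gave 14.5 and 14.9 CPM in unloaded and 12.8 and 15.97 CPM in loaded cells, and the groups overlapped.

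The H2B genes were led by *Hist1h2bc*, with 130 and 240 counts in unloaded and 207 and 159 counts in loaded cells. *Hist2h2be* followed with 112 and 140 against 104 and 132, and *Hist1h2bg* with 36 and 57 against 79 and 25. In each of the 3 genes the replicates of a group differed by as much as the groups, and the log2 fold changes were -0.08 ± 0.31, -0.15 ± 0.27 and 0.08 ± 0.57. *Hist2h2be* shares no 75-base window with another member. Of 6 tested H2B genes, 3 had positive and 3 negative fold changes, with a median of 0.00. The 19 H2B genes summed to 12.5 and 16.9 CPM in unloaded and 13.9 and 13.3 CPM in loaded cells, with the loaded values between the unloaded ones. Among H2B genes too low for the test, *Hist1h2bm* had 3 and 5 against 0 and 0 counts and *Hist1h2bp* 3 and 7 against 1 and 0, both chosen after their values were seen.

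The H3 and H4 genes were lower still. *Hist1h3h* had 12 and 19 against 20 and 22 counts, and *Hist2h3c2* had 8 and 26 against 19 and 26. Of their 75-base windows, 93.5% and 62.6% occur in other members, so these counts are not specific to the genes. *Hist1h3c* had 22 and 23 counts in unloaded and 12 and 10 in loaded cells without overlap (log2 fold change -1.09 ± 0.57, edgeR adjusted p = 0.448). Of 7 tested H3 genes, 4 had positive and 3 negative fold changes. The H3 sum was 3.41 and 6.27 against 6.14 and 4.60 CPM, so the unloaded replicates differed more than the groups. The replication-independent H3 genes, at 711 and 699 against 715 and 694 CPM, differed by a log2 ratio of 0.00.

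Among H4 genes, *Hist1h4h* had 28 and 19 against 36 and 23 counts and *Hist1h4n* 15 and 25 against 17 and 25. Both overlapped between groups, with log2 fold changes of 0.25 ± 0.52 and 0.02 ± 0.58, and 42.4% and 83.4% of their 75-base windows occur in other members. *Hist2h4* was the gene with the most negative fold change: it had 20 and 18 counts in unloaded and 7 and 1 in loaded cells (log2 fold change -2.30 ± 0.90, edgeR adjusted p = 0.329). Its ratio of summed counts was 0.201, with a 95% exact interval of 0.0811 to 0.438 that covers counting error only, and its transcript shares no 75-base window with other members. The log2 fold change was -4.09 without loaded replicate 1 and -1.55 without loaded replicate 2. *Hist1h4j*, chosen after its values were seen, had no count in unloaded cells and 8 and 5 in loaded cells, a ratio with a 95% exact lower limit of 2.91 for counting error alone. The 13 H4 genes summed to 5.61 and 6.07 CPM in unloaded and 5.39 and 5.50 CPM in loaded cells, a log2 ratio of -0.10 with both loaded values below the unloaded ones.

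**Figure D4:**
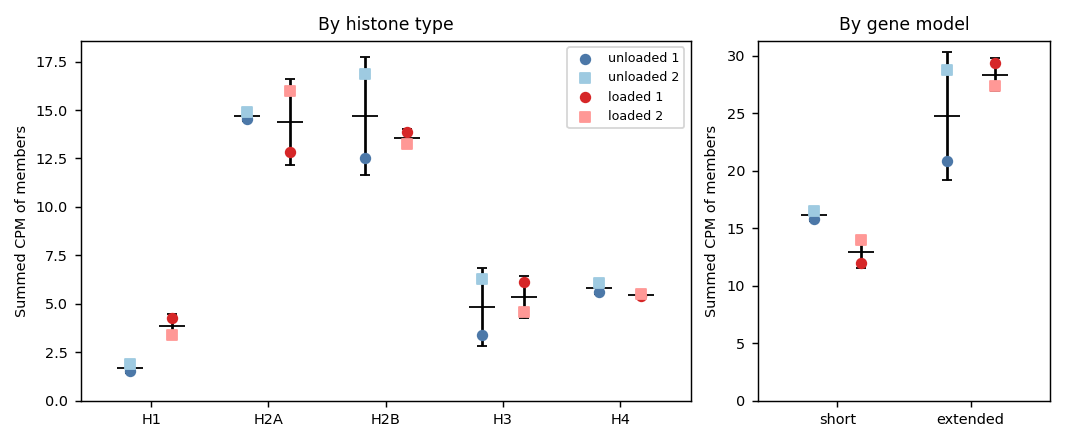
Summed CPM of the members by histone type (left) and by gene model (right), with 1 point per library and the mean ± SD of the 2 replicates per group. The H1 points of loaded cells lie above those of unloaded cells, the short-model points lie below them, and H2A, H2B, H3 and the extended models overlap.

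By cluster, the 56 Hist1 genes held 71.8% of the member counts and summed to 27.5 and 33.3 CPM in unloaded and 29.7 and 30.8 CPM in loaded cells. The 10 Hist2 genes gave 6.89 and 8.65 against 7.81 and 6.64 CPM. In both clusters the loaded and unloaded values overlapped. Of the Hist3 genes, *Hist3h2a* held all counts but 1, since *Hist3h2bb-ps* had a single count in loaded replicate 1 and *Hist3h2ba* none. *Hist4h4* had 12 and 12 against 17 and 4 counts (log2 fold change -0.28 ± 0.83), and its log2 fold change was -1.56 without loaded replicate 1 and 0.38 without loaded replicate 2. Of the other genes within the cluster spans, 8 were tested and none was called by edgeR, among them *Hfe* (iron uptake) and the zinc-finger gene *Zfp184*.

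The annotated gene models divide the members by their 3′ ends. In 28 members a model runs more than 100 bases past the stem-loop or, where there is none, past the stop codon; these extended models are 40% of the members and held 63.1% of the counts. The 39 members with short models held 34.3% and the 3 pseudogenes 2.55%. A longer model collects more counts at a given level, and per length the order was the other way: the median level was 0.273 CPM per kb for extended and 0.384 CPM per kb for short models. Short models summed to 15.8 and 16.5 CPM in unloaded and 12.0 and 13.96 CPM in loaded cells, a log2 ratio of -0.31 that lay between -0.43 and -0.21 when each library was left out. Within this sum, *Hist1h2ap* and *Hist1h2ao* held 355 and 324 of the 1760 short-model counts. They have the same coding sequence and were low only in loaded replicate 1, and the sum without them was not computed. Extended models summed to 20.9 and 28.7 against 29.4 and 27.3 CPM, a log2 ratio of 0.19 that became -0.02 without unloaded replicate 1 and 0.44 without unloaded replicate 2. The limit of 100 bases was chosen after the counts were seen, so these sums are a description, and whether the reads fell on the extended ends cannot be read from counts per gene.

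Genes that make, process and place histones were counted next. In the list of histone mRNA 3′ end processing and turnover, 0 of 16 tested genes were called by edgeR, with a median log2 fold change of 0.03. *Slbp*, the stem-loop binding protein, had 3191 and 3249 counts in unloaded and 3169 and 2997 in loaded cells (log2 fold change -0.13 ± 0.07, edgeR adjusted p = 0.493). *Npat*, the activator of histone gene transcription, had 2783 and 2754 against 2776 and 2888 (-0.03 ± 0.09), and *Casp8ap2* (FLASH), part of the histone locus body, had 5250 and 4765 against 5157 and 5832 (0.07 ± 0.12). As CPM, *Slbp* did not overlap between groups and the other two did. *Lsm10*, a subunit of the U7 snRNP that cuts histone pre-mRNA, had 345 and 347 against 549 and 540 counts without overlap (log2 fold change 0.59 ± 0.13, edgeR adjusted p = 0.134). Of 15 histone chaperones 0 were called (median 0.02), and *Daxx*, a chaperone of H3.3, had the smallest p, with 958 and 943 against 735 and 767 counts (log2 fold change -0.40 ± 0.11, edgeR adjusted p = 0.188). Of 11 replication-independent histones 0 were called (median 0.02), and *H2afy2* (macroH2A2) had 1132 and 1124 against 884 and 841 counts (-0.45 ± 0.10, edgeR adjusted p = 0.127).

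The S phase and mitosis lists had mostly negative fold changes, beside the log2 ratio of 0.03 of the histone sum. In the DNA replication and S phase list, 27 of 31 genes had a negative log2 fold change, with a median of -0.15. Over all 16269 tested genes, 8380 were negative and the median was -0.01. At an unadjusted edgeR p under 0.05, 10 were lower and 0 higher (all tested genes, 14.3% in either direction), and 0 passed the adjusted threshold. *Lig1*, the replicative DNA ligase, had 4634 and 4846 counts in unloaded and 4206 and 3747 in loaded cells (log2 fold change -0.32 ± 0.07, edgeR adjusted p = 0.121). The 10 mitosis genes were all negative with a median of -0.13, and 0 were called by edgeR. *Mki67* had 37209 and 35805 against 31206 and 29959 counts (-0.32 ± 0.06, edgeR adjusted p = 0.0966, DESeq2 adjusted p = 0.00232). Of the 6 tested RNAs in the list without a poly(A) tail, 5 had a positive fold change, with a median of 0.59 and 0 called. *Rn7sk* had 91 and 128 against 198 and 173 counts (0.70 ± 0.24, edgeR adjusted p = 0.277), and *Rn7s1* and *Rn7s2*, near-identical copies of the signal recognition particle RNA, had 0.67 ± 0.27 and 0.73 ± 0.26. *Rmrp* (40 and 54 against 68 and 48 counts) and *Rpph1* (22 and 38 against 34 and 54) overlapped between groups, and *Rnu12* had a log2 fold change of 0.00. The part of these RNAs in the H1 values was not tested.

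Promoter windows of RefSeq (GRCm38.p6), from 250 bases before to 50 after the start, matched 61 of the 70 members. The motifs were searched on both strands, and windows of neighbouring genes that point away from each other can overlap. A gene was counted if any of its windows held the motif. The CCAAT box (CCAAT) was in 52 of 61 members (85.2%), against 41.1% of the 27025 genes with a window: in 6 of 6 H1, 17 of 17 H2A, 16 of 16 H2B and 10 of 10 H3 genes, but in 3 of 12 H4 genes. The octamer (ATTTGCAT) was in 7 of 17 H2A and 7 of 16 H2B genes and in 0 genes of the other types, against 1.97% of all genes. TATAAA was in 35 of 61 members (57.4%), against 15.7% of all genes. A match is a description of the letters and not evidence of binding.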

How the data were processed

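RNA-seq of 2 unloaded and 2 loaded MLO-Y4 libraries was used. The authors depleted ribosomal RNA, mapped trimmed reads to mm10 with HISAT2 2.1.0, assembled transcripts with StringTie 1.3.5 and deposited raw counts per gene made with the prepDE script, which derives counts from coverage, transcript length and read length. Read length, strandedness and annotation release are not given in the sources used here. Gene identifiers matched GENCODE M21, which gave coordinates, exon lengths and transcripts.

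Genes were filtered with filterByExpr (minimum count 10), scaled by TMM and tested with edgeR 4.0.16 (glmQLFit, glmQLFTest) in R 4.3.3, and p-values were adjusted (Benjamini-Hochberg, 16269 tested genes) and held to the study's threshold of 0.01. The SE is the fold change divided by the square root of F. DESeq2 1.42.0 was an alternative, beside those under the closing section. Sums were of CPM, with SD over 2 replicates and no test. Intervals and floors cover counting error only and take the listed counts as independent reads. Since those counts derive from coverage, the limits are approximate. Shared sequence was counted as exact 75-base windows of the transcripts, among the members and not against other genes. The test was checked on simulated data, with changes set only in well-counted genes and the same dispersion for all genes. It was not checked at the low counts of most members. Sequences were handled in Python 3.11.15 with Biopython 1.88.

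Members and lists were chosen with earlier results of these data known. Named members are the 10 of highest mean CPM per kb, the highest of each type in each cluster, those with an adjusted p under 0.01, the 5 of smallest p in each direction, and all Hist3 and Hist4 genes. From the lists, *Slbp*, *Npat*, *Casp8ap2* and at most 3 genes of smallest p each were named. Others named are members or genes without counts, overlapping genes and markers, and were chosen after their values were seen.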

Additional observations from a re-analysis of the deposited data

How the results depend on the processing

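No clustered histone gene was called under any alternative that was run: DESeq2, RLE factors, all genes with a count, only genes with 10 or more in each library, an adjusted p under 0.05, the replicate number as a block, each library left out (the lone library of a group is then assumed to vary like the other group), and the members without identical coding sequence. The median log2 fold change of the members, 0.08 over 33 members, was -0.01 with DESeq2 and -0.02 without a filter, each over 61 members. Those 61 include members too low for the main test, so these medians are of unlike sets. When each library was left out, the median lay between -0.16 and 0.40 (37 to 39 members), so its sign is not stable. The log2 ratio of the summed level, 0.03, was -0.09 per kb of exon and lay between -0.11 and 0.18 without each library. The lists of histone supply, S phase, mitosis and RNAs without a poly(A) tail had 0 calls higher in loaded cells under these settings, which were not applied to the marker lists (there, *Pdpn* had an edgeR adjusted p of 0.0334 and a DESeq2 adjusted p of 2.2e-08). DESeq2 called 1 gene lower (*Mki67*), and leaving out each library gave 0 to 1 (*Fen1*, without unloaded replicate 1). Samples with the same replicate number did not deviate together over all tested genes (correlation -0.06). This gave no sign that the numbers pair the samples, but it cannot show that they are unpaired. With the replicate block the median was 0.07, the log2 ratio of the sum 0.04 and the counts of calls 0. Most members had under 40 counts in every library, so counting error is large for them. Replicates also differed by more than counting error, which alone gives a chi-square per degree of freedom near 1. For members with 10 or more counts in a pair, it was 2.80 between unloaded and 6.45 between loaded replicates. Pairs across the groups gave 4.08 to 6.49. Changes of the size fitted here did not pass the test at this depth and with this spread between replicates.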
